A study of Mus musculus with 12 samples.

Results

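The Toll-like receptors, the LPS co-receptor Ly96 and the adaptor Myd88 are the genes described here. They were taken as every endogenous probe whose symbol begins with Tlr, together with Ly96 and Myd88, which gave 9 of the 185 endogenous probes of the panel: Tlr1, Tlr2, Tlr3, Tlr4, Tlr5, Tlr6, Tlr7, Ly96 and Myd88. Messenger RNA was counted in the oviducts of 12 female CD1 mice, an outbred stock, on the nCounter GX Mouse Inflammation panel, in which a probe pair with a fluorescent barcode binds each mRNA and single barcodes are counted. All mice were 6 to 8 weeks old and of 1 stock, and the labels name no engineered allele. On the day of estrus each was injected intraperitoneally with lipopolysaccharide (LPS) of Escherichia coli serotype 055:B5 in phosphate-buffered saline, at 0 µg (control, 4 mice), 2 µg (low dose, 4 mice) or 10 µg (high dose, 4 mice), and oviducts were taken 24 h later. Each count is of whole oviduct, so more cells of a type and more RNA per cell cannot be told apart. None of 5 oviduct epithelium markers had a probe among those analysed here, so the labelled tissue could not be checked against them.

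Toll-like receptors bind molecules that microbes share and signal into the cell. Tlr4 recognises LPS only together with Ly96 (MD-2), a small secreted protein that holds the lipid part of LPS. Tlr2 pairs with Tlr1 or Tlr6 to bind bacterial lipoproteins, Tlr5 binds flagellin, and Tlr3 and Tlr7 sit in endosomes and bind double-stranded and single-stranded RNA. Myd88 carries the signal of every receptor measured here except Tlr3, towards NF-kB and the genes of inflammatory cytokines, while Tlr3, and Tlr4 from the endosome, also use another adaptor that leads to interferon genes.

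Values are scaled counts, which are raw counts divided by the lane's geometric mean of 6 reference genes. Raw counts of the 9 genes were at least 23, above the mean plus 2 SD of the negative control probes (3.16 to 6.78 counts) in all 12 lanes. Endogenous counts per lane ran from 98258 to 196878, and in control mice 2 and 4 under 75% of the fields of view were counted (73.7% and 62.3%). A scaled count depends on how well a probe binds, so levels of different genes are not compared. The mouse number names a mouse within its dose only.

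The control region of Tlr2 is shown because Tlr2 changed most of the 9 genes, and that of Myd88 because its level stood apart in single mice. The windows are the 250 bases before the RefSeq start (GRCm38.p6), on the minus strand at chr3:83841609-83841858 for Tlr2 and at chr9:119340019-119340268 for Myd88. Capitals mark a kappa B type match (GGG and CC with any 5 bases between) in Tlr2 and an interferon-stimulated response element type match (GAAA repeated after any 2 bases) in Myd88, both searched on both strands.
Tlr2: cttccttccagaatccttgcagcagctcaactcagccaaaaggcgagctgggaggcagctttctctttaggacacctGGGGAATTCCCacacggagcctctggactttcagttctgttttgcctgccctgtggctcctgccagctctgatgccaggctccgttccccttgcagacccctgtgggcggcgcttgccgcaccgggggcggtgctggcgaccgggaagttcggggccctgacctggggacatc
Myd88: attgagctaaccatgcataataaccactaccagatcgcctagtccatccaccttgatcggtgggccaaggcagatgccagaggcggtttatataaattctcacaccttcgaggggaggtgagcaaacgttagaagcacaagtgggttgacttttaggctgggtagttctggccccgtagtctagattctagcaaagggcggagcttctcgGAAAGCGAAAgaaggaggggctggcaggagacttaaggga
In Tlr2 the capitals begin 173 bases before the start and hold a match on the strand shown and, 1 base further on, an overlapping match found on both strands, and no interferon element type match was found. In Myd88 the match begins 40 bases before the start, and no kappa B type match was found. A kappa B type match occurs in 45.8% of 32851 mouse promoter windows of this length and the interferon element type in 2.98%, so a kappa B type match alone is a common feature. RefSeq windows were matched for 6 of the 9 genes, and a match of letters is no measured binding site. Tlr4, Ly96 and Tlr7 had no window, so neither gene of the LPS receptor complex was searched. Kappa B type matches also lay in windows of Tlr3, Tlr5 and Tlr6, and the interferon element type in a window of Tlr6. None of these genes passed the test on the reference scale, so the motifs are not particular to the 2 genes shown.

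At the high dose the receptor for lipoproteins, Tlr2, rose 2.78-fold and Ly96 rose 1.34-fold, while Tlr4, the adaptor and the other receptors did not pass the test. By edgeR's quasi-likelihood test with Benjamini-Hochberg adjustment over 165 genes, 2 of the 9 genes passed as higher at the high dose and 0 as lower. Over all genes tested 22.4% were higher at this dose, so the share among the 9 genes was close to the background. Their median log2 fold change was 0.34, beside 0.24 over all genes. The same 2 genes, Tlr2 and Ly96, had every high-dose mouse above every control mouse, as did 25.5% of all genes tested. At the low dose 0 of 9 passed, where 2.42% of all genes did, and none of the 9 had an unadjusted p below 0.05, where 13.9% of all genes did. Between high and low dose 0 of 9 passed by edgeR, where 6.67% of all genes were higher. The comparisons of each dose with controls share the 4 control mice, so they are not independent of each other.

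**Figure D1:**
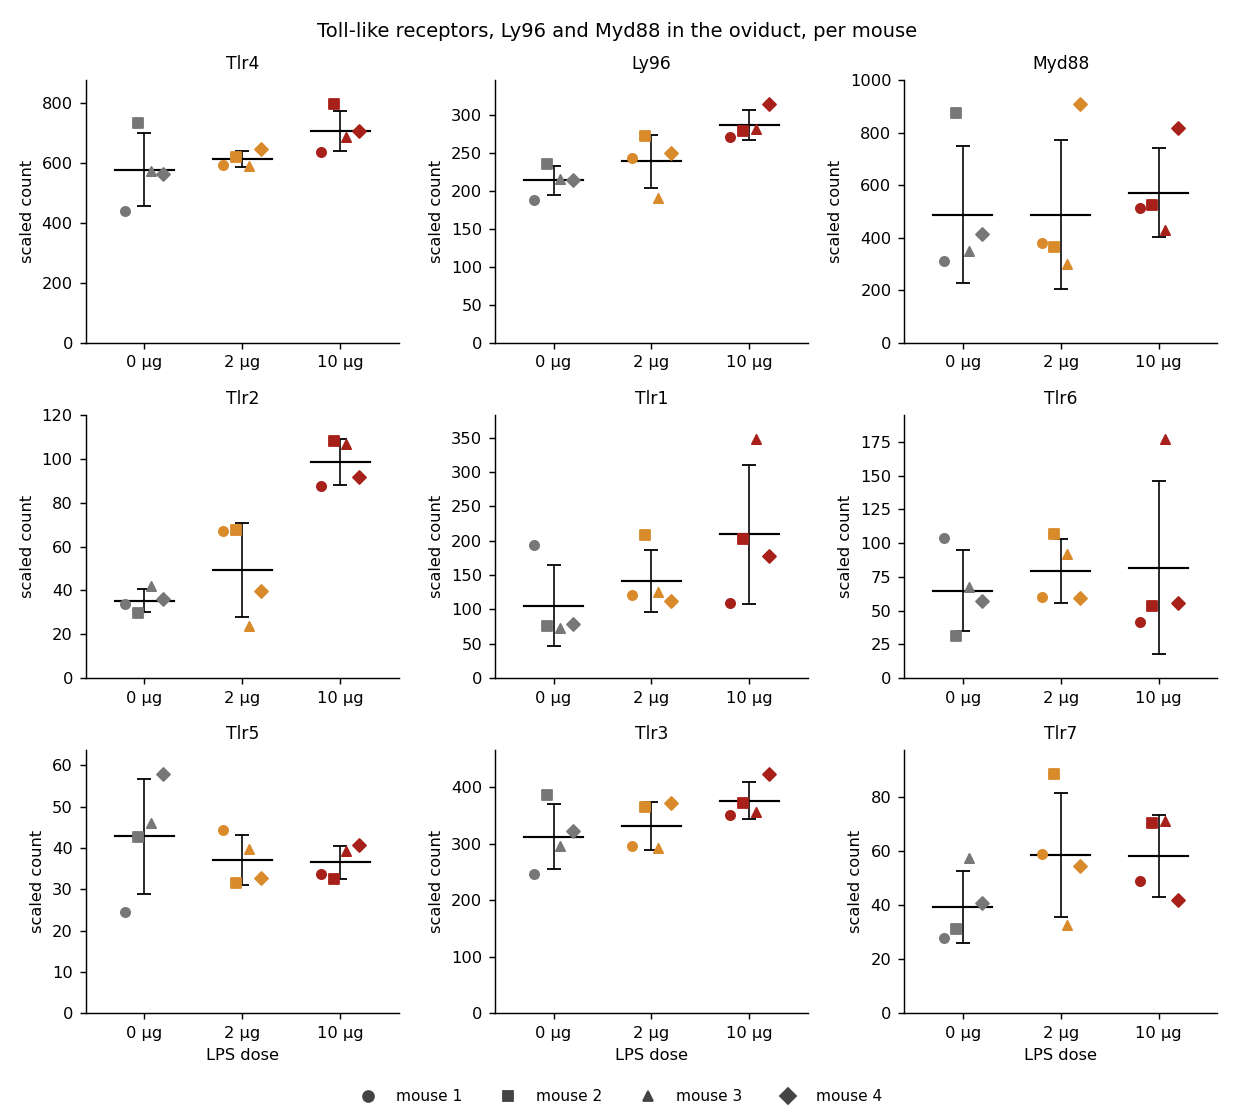
Scaled counts of the 9 genes, 1 panel per gene, by LPS dose (0, 2 and 10 µg), with 1 point per mouse (n = 4 per dose), the mean as a bar and the SD as whiskers; each panel has its own axis from 0. Tlr2 and Ly96 are the genes in which all high-dose mice lie above all controls, and Tlr1, Tlr6 and Myd88 hold single mice far above the others of their dose.

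Tlr4, the LPS receptor itself, had scaled counts of 439.5, 734, 571 and 563 in control mice 1 to 4, of 594, 619, 588 and 645 in low-dose mice, and of 635, 797, 684 and 705 in high-dose mice. On the reference scale the controls spanned 1.67-fold and overlapped both treated groups, because control mouse 2 was higher than 3 of the 4 high-dose mice. Raw Tlr4 counts of control mice 1 to 4 were 521, 567, 558 and 564. The lane of control mouse 2 had the lowest reference scale of the 12 lanes (0.773) but 1.07 by positive controls. Its high Tlr4 value thus depended on the lane scale. The log2 fold change was 0.29 ± 0.14 (SE) for high dose against control, with an edgeR adjusted p = 0.161. Without control mouse 2, whose lane also had few counted fields of view, it was 0.43 with an edgeR adjusted p = 0.0178. Of the 12 fits that left out 1 mouse, only this 1 passed, with log2 fold changes of 0.18 to 0.43 over the 12. Over 15 other settings the log2 fold change ran from -0.28 to 0.48, and 2 of these settings passed. For low dose against control the main fit gave 0.08 ± 0.14 (adjusted p = 0.832).

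Ly96, the LPS-binding partner of Tlr4, had 188, 236, 216 and 214 scaled counts in controls, 243.5, 272, 190 and 249.7 at the low dose, and 270, 279, 280.4 and 314 at the high dose. Each high-dose mouse lay above each control, but low-dose mouse 2 lay inside the high-dose range. Ly96 averaged 286 ± 19.5 in high-dose mice and 213.5 ± 19.5 in control mice (SD, n = 4 each). The log2 fold change was 0.42 ± 0.12 (SE, edgeR adjusted p = 0.0261), and it was -0.16 when lanes were scaled by total endogenous count, a scale on which the median of all genes was -0.34. The call was lost by TMM (0.17, adjusted p = 0.182) and DESeq2 size factors (0.16, adjusted p = 0.208). It was also lost when high-dose mouse 2, 3 or 4 or control mouse 1, 3 or 4 was left out, with adjusted p of 0.0513 to 0.0916, though the log2 fold change stayed between 0.36 and 0.47 whichever mouse was left out. At the low dose the log2 fold change was 0.16 ± 0.12 (adjusted p = 0.586).

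A ratio of both genes within a lane needs no reference genes. Per 100 Tlr4 counts there were 42.8, 32.1, 37.8 and 38.1 Ly96 counts in controls, 41, 44, 32.2 and 38.7 at the low dose, and 42.5, 35, 41 and 44.6 at the high dose. The 3 groups overlapped, with means of 37.7 ± 4.38, 39 ± 4.99 and 40.8 ± 4.13 (SD, n = 4 each) in the order of dose. Fitted relative to Tlr4, Ly96 differed between high dose and control by 0.11 ± 0.14 (log2, SE, edgeR adjusted p = 0.583) and between low dose and control by 0.05 ± 0.14 (adjusted p = 0.9). Ly96 passed against controls and Tlr4 did not, yet a difference between their changes was not detectable with 4 mice per group.

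Tlr2, the shared subunit of the lipoprotein receptors, had 33.7, 29.8, 41.9 and 35.9 scaled counts in controls, 67, 67.4, 23.9 and 39.6 at the low dose, and 87.5, 108, 107 and 91.6 at the high dose. All high-dose mice lay above all others, and the low-dose mice were split, with mice 1 and 2 above every control, mouse 4 inside the control range and mouse 3 below it. Tlr2 averaged 98.6 ± 10.6 in high-dose mice and 35.3 ± 5.08 in control mice (SD, n = 4 each), a log2 fold change of 1.48 ± 0.29 (SE, edgeR adjusted p = 0.00299). It stayed past the threshold in all 15 other settings and all 12 fits that left out 1 mouse, with log2 fold changes of 0.89 to 1.57. At the low dose it was 0.48 ± 0.29 (edgeR adjusted p = 0.501). High dose against low dose gave 1.00 ± 0.28 (edgeR adjusted p = 0.0595), with every high-dose mouse above every low-dose mouse, as in 14.5% of all genes. DESeq2 (adjusted p = 0.0103) and limma-voom (adjusted p = 0.0305) called that difference.

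Tlr1, a partner of Tlr2, had 193, 76.4, 72.6 and 78.8 scaled counts in controls, 120.4, 207, 125 and 112 at the low dose, and 109, 202, 348 and 177 at the high dose. Control mouse 1 lay above low-dose mice 1, 3 and 4 and above high-dose mice 1 and 4, so the groups overlapped. The log2 fold change at the high dose was 0.99 ± 0.41 (SE) and did not pass (edgeR adjusted p = 0.11). It was 1.46 without control mouse 1 (adjusted p = 0.0179) and 1.2 without high-dose mouse 1 (adjusted p = 0.0462), so single mice decide the call.

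Tlr6, the other partner of Tlr2, had 104, 31.1, 67.5 and 56.9 scaled counts in controls, 59.7, 107, 91.7 and 59.4 at the low dose, and 41.2, 53.1, 177 and 55.7 at the high dose. High-dose mouse 3 stood far above the rest of its dose, and the other high-dose mice lay inside the control range. The log2 fold change was 0.34 ± 0.48 (SE, edgeR adjusted p = 0.698) for high dose against control and 0.29 ± 0.48 (adjusted p = 0.842) for low dose against control. Tlr6 thus had the widest SE of the 9 genes.

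Tlr1 and Tlr6 were high in the same mice. The highest mouse of each dose was the same for both genes: control mouse 1, low-dose mouse 2 and high-dose mouse 3. Over all 12 mice these held ranks 4, 2 and 1 from the highest for Tlr1 and ranks 3, 2 and 1 for Tlr6. The 2 genes are close relatives in sequence and no other protein-coding gene lies between them in the RefSeq table, and whether their probes also bind each other's mRNA was not tested. Their levels were not in a fixed proportion, since Tlr6 counts per 100 Tlr1 counts ran from 26.3 in high-dose mouse 2 to 93 in control mouse 3. For Tlr2 the same 3 mice held ranks 10, 5 and 2, so low-dose mouse 2 was again the highest of its dose, while control mouse 1 lay below control mice 3 and 4.

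**Figure D2:**
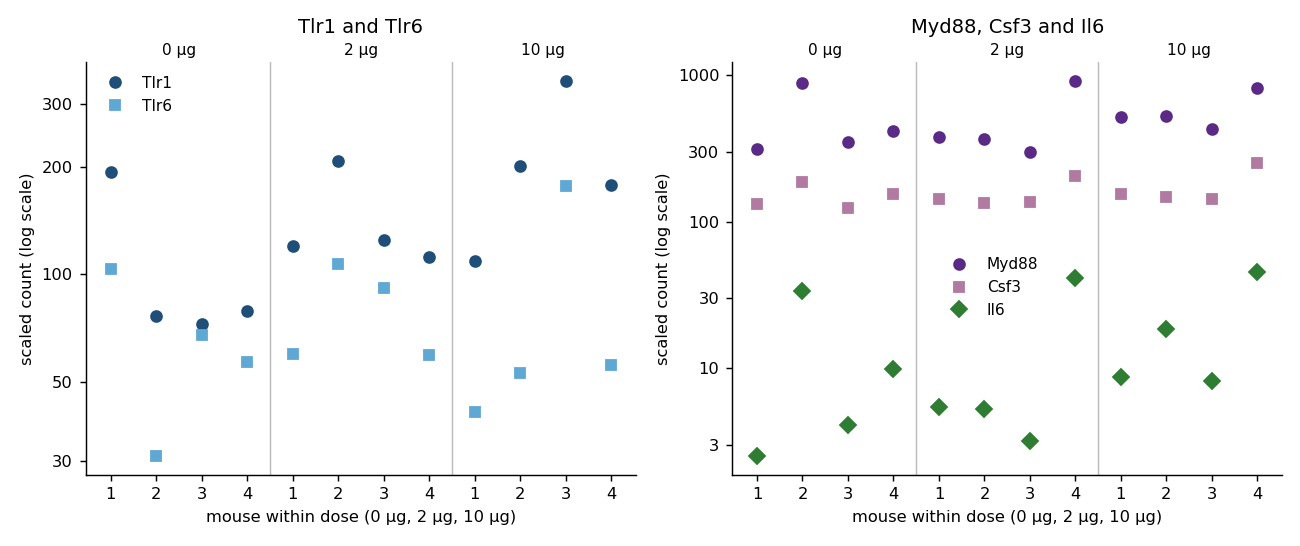
Scaled counts (log axis) of Tlr1 and Tlr6 on the left and of Myd88, Csf3 and Il6 on the right, by mouse within dose (0, 2 and 10 µg LPS); each point is 1 mouse. Tlr1 and Tlr6 peak in control mouse 1, low-dose mouse 2 and high-dose mouse 3, while Myd88, Csf3 and Il6 peak in control mouse 2, low-dose mouse 4 and high-dose mouse 4.

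Tlr5, the flagellin receptor, had 24.5, 42.7, 46 and 57.9 scaled counts in controls, 44.4, 31.5, 39.9 and 32.7 at the low dose, and 33.8, 32.5, 39.3 and 40.6 at the high dose. All treated mice lay inside the control range. It was the 1 gene of the 9 whose log2 fold change was below 0 at the high dose on the reference scale, at -0.22 ± 0.24 (SE, edgeR adjusted p = 0.577). By total endogenous count it was -0.79 and passed as lower (edgeR adjusted p = 0.013). The value at the low dose was -0.20 ± 0.24 (edgeR adjusted p = 0.756).

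Of the receptors in endosomes, Tlr3 had 246, 386, 296 and 323 scaled counts in controls, 297, 365, 292 and 372.5 at the low dose, and 351, 373, 357 and 423 at the high dose. Its groups overlapped, and control mouse 2 was again the highest control on the reference scale, as for Tlr4, Ly96 and Myd88. That lane had the lowest reference scale of the 12 (0.773). In raw counts this mouse was the highest control for Myd88 (675) and barely so for Tlr4 (567 beside 564 in mouse 4). It was the lowest control for Ly96 (182), and its Tlr3 count of 298 lay below 324 in control mouse 4. The log2 fold change at the high dose was 0.27 ± 0.14 (SE, edgeR adjusted p = 0.221), and by total endogenous count it was -0.31 and passed as lower (adjusted p = 0.0423).

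Tlr7, the receptor of single-stranded RNA, had 27.8, 31.1, 57.3 and 40.9 scaled counts in controls, 58.8, 88.4, 32.7 and 54.5 at the low dose, and 48.8, 70.5, 71.2 and 41.8 at the high dose. The groups overlapped at both doses. Its log2 fold changes were 0.57 ± 0.33 (SE, edgeR adjusted p = 0.254) at the high dose and 0.57 ± 0.33 (adjusted p = 0.486) at the low dose.

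Myd88, the adaptor, had 313, 874, 350 and 416 scaled counts in controls, 379, 366, 298 and 911 at the low dose, and 512.5, 526, 430.2 and 818 at the high dose. In each dose 1 mouse (control mouse 2, low-dose mouse 4 and high-dose mouse 4) stood far above the others, and these were the 3 highest of all 12. The group means were 572 ± 169 at the high dose and 488 ± 260.5 in controls (SD, n = 4 each), those mice included. Against controls the log2 fold change was 0.23 ± 0.41 (SE, edgeR adjusted p = 0.765) at the high dose and 0.00 ± 0.41 (adjusted p = 0.997) at the low dose.

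The gene whose pattern over the 12 mice was most like that of Myd88 was Csf3, which encodes the growth factor of neutrophils, with a root mean square difference of centred log2 scaled counts of 0.32. Hspb1 (0.348), a small heat shock protein, and Tradd (0.379), an adaptor of TNF receptors, followed, against a median of 0.603 over all genes. Csf3 was 186, 205 and 249 in control mouse 2, low-dose mouse 4 and high-dose mouse 4, and 124 to 154 in the other mice. Il6, an inflammatory cytokine chosen after its values were seen, was 33.7, 41.6 and 45.2 in those mice and 2.53 to 18.4 in the others, with raw counts near the negative controls in several of them. On the reference scale the same mice were thus the 3 highest for Myd88, Csf3 and Il6, and their dose differed. In raw counts the 3 highest for Csf3 were high-dose mouse 4 (215), low-dose mouse 4 (207) and low-dose mouse 3 (171). Control mouse 2 had 144 raw Csf3 counts, below control mice 1 (156) and 4 (154) and below every low-dose mouse. Its high Csf3 value thus depended on the lane scale (0.773).

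For Tlr2 the nearest patterns were Cd40 (0.201), a receptor on antigen-presenting cells, C1qb (0.289), a complement chain made by macrophages, and Ccl19 (0.329), a chemokine for dendritic and T cells, against a median of 0.736 over all genes. Cd40 averaged 58.6 in high-dose mice and 21.3 in controls. For Tlr4 they were Nfkb1 (0.104), a subunit of NF-kB, Tlr3 (0.107) and the kinase Mapk14 (0.108), against a median of 0.374. For Ly96 they were Tlr3 (0.121), Nfkb1 (0.124) and Il10rb (0.14), a cytokine receptor chain, against 0.375. Over the 12 mice Tlr4 and Ly96 thus shared 2 of their 3 nearest genes, Nfkb1 and Tlr3. The measure is a size of difference, so genes that vary little between mice lie near each other whatever their pattern. All genes of a lane share its reference scale, which moves such likeness.

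To set the receptors of other ligands against the LPS receptor complex, each lane was scaled by the geometric mean of its Tlr4 and Ly96 counts and the 163 other genes were tested. At the high dose 1 of the 7 other genes, Tlr2, was higher relative to the complex and 0 were lower, where 20.2% of all genes were higher and 18.4% lower. Per 100 complex counts Tlr2 had 11.7, 7.16, 11.9 and 10.3 counts in controls, 17.6, 16.4, 7.16 and 9.88 at the low dose, and 21.1, 23, 24.4 and 19.5 at the high dose. All high-dose mice lay above all others, with a mean of 22 ± 2.16 in high-dose mice and 10.3 ± 2.21 in controls (SD, n = 4 each). Relative to the complex, 20.2% of all genes had every high-dose mouse above every control. The log2 difference in change was 1.09 ± 0.28 (SE, edgeR adjusted p = 0.012), and it did not pass when control mice 2 and 4 were both left out (0.89, adjusted p = 0.0734).

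The other receptors were not separable from the complex. Relative to it, at the high dose, Tlr1 was 0.53 ± 0.45 (log2, SE, edgeR adjusted p = 0.378), Tlr7 0.20 ± 0.30 (adjusted p = 0.632) and Tlr5 -0.57 ± 0.24 (adjusted p = 0.0759). Tlr3, Tlr6 and Myd88 lay between -0.10 and -0.08. The SE differed widely, at 0.09 for Tlr3 and 0.53 for Tlr6, so the comparison was least precise for Tlr6. Without control mouse 1, Tlr1 (1.18, adjusted p = 0.031) and Tlr5 (-0.71, adjusted p = 0.0389) passed as well. At the low dose 0 of 7 passed, where 2.45% of all genes did. Between high and low dose 0 of 7 passed by edgeR, where 4.29% did, and Tlr2 was at 0.78 ± 0.27 (adjusted p = 0.136), with all high-dose mice above all low-dose mice, as in 8.59% of all genes.

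**Figure D3:**
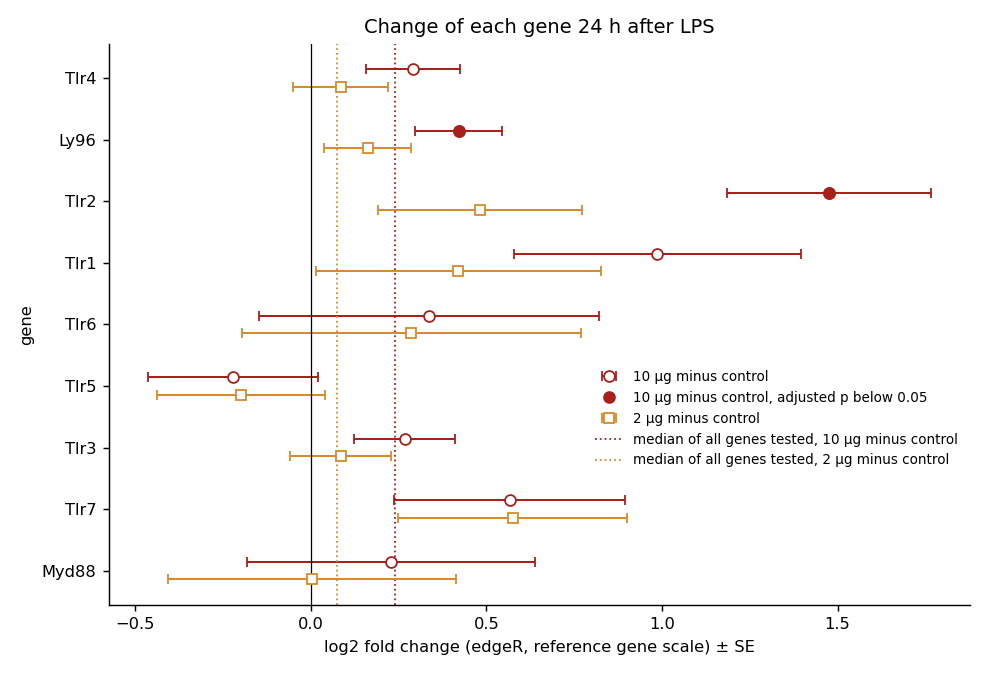
Log2 fold change of each of the 9 genes with its SE (edgeR, reference gene scale), for high dose (10 µg) minus control and low dose (2 µg) minus control; filled points have an adjusted p below 0.05, and dotted lines mark the medians over 165 genes. Tlr2 (1.48) and Ly96 (0.42) are the filled points, and no low-dose value is filled.

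Markers of other cells were counted beside Tlr2, and their calls are to be read against the 22.4% of all genes that were higher at the high dose. Of 11 macrophage and monocyte markers 4 were measured, and 3 of these (C1qa, C1qb and C3ar1) rose at the high dose, by log2 fold changes of 1.23 to 1.5, while Ccr2 did not pass (0.17). At the low dose 0 of the 4 passed, where 2.42% of all genes did. Their summed scaled level was 1470 to 2080 in controls, 1360 to 5110 at the low dose and 4030 to 5060 at the high dose. Of 3 genes listed as neutrophil markers (Il8rb, Il8ra and Itgb2), Il8rb and Itgb2 rose at the high dose, and Il8rb at the low dose. Their summed levels were 77.6 to 125, 125 to 282 and 196 to 357 in the order of dose. Most of that sum was Itgb2 (mean 99.8 in controls and 234 at the high dose), which is not confined to neutrophils. Il8rb averaged 4.45 and 46.8 in these groups, and Il8rb and Il8ra lay under the negative control limit in all control lanes. Of 7 T and NK cell markers 2 passed as higher at the high dose, near the background, and 0 at the low dose, with sums of 54 to 93.2, 82.1 to 138 and 112 to 133. The dendritic cell marker Ccr7, under the limit in all control lanes, rose as well, and the smooth muscle marker Myl2 did not pass (0.46). No B cell marker was measured here. Low-dose mouse 3, the lowest mouse for Tlr2, was also the low-dose mouse with the least C1qb, at 714 scaled counts against 1653 to 2670 in the others. The same mouse was lowest of its dose for C1qa, C3ar1, Ccr2, Itgb2, Tlr3, Tlr4, Tlr7, Ly96 and Myd88, and highest for Il8rb (33.5). Its lane had the largest reference scale of the 12 (1.25). In raw counts it was still the lowest of its dose for Tlr2 (30, against 40 to 77) and C1qb (896, against 1668 to 3051). The same held in raw counts for C1qa, C3ar1, Ccr2, Itgb2, Tlr7, Ly96 and Myd88, so a low value there is not particular to Tlr2 and C1qb. Its raw Tlr4 count (738) was the highest of its dose, and its raw Tlr3 count (366) lay above that of low-dose mouse 1 (328).

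With the lanes scaled by those 4 macrophage and monocyte markers, a setting chosen after the data were seen, Tlr2 differed between high dose and control by 0.37 ± 0.29 (log2, SE, edgeR adjusted p = 0.278). On that scale the median of all genes was -0.89. Per 100 counts of these markers (their geometric mean), Tlr2 had 11.9, 9.67, 11 and 9.58 counts in controls. It had 8.88, 8.73, 9.67 and 6.09 at the low dose and 13.6, 13, 14.1 and 13.7 at the high dose. On this ratio all high-dose mice lay above all others, although the fit did not pass. The share of all genes with such a separation was not counted. Per 100 C1qb counts Tlr2 had 4.77, 3.16, 3.89 and 3.85 counts in controls, 3.29, 2.52, 3.35 and 2.4 at the low dose, and 4.11, 4.04, 4.29 and 3.97 at the high dose. The high-dose mice lay inside the control range, at a mean of 4.1 ± 0.139 in high-dose mice and 3.92 ± 0.657 in controls (SD, n = 4 each). Fitted relative to C1qb the difference in Tlr2 was 0.06 ± 0.28 (edgeR adjusted p = 0.838). C1qb was also 1 of the 3 genes nearest in pattern to Tlr2 over these 12 mice. A small difference relative to C1qb was thus likely given that pattern and is no separate test. On the C1qb scale 6 of the 9 genes passed as lower (Tlr3, Tlr4, Tlr5, Tlr7, Ly96 and Myd88), where 64% of all genes were lower and 6.71% higher, at a median of -1.17. Tlr4 was at -1.11 ± 0.36 (adjusted p = 0.0135) and Ly96 at -0.98 ± 0.33 (adjusted p = 0.0151), close to that median. On the scale of 4 markers 1 of the 9 genes passed at the high dose, Tlr5 as lower (-1.29 ± 0.41, adjusted p = 0.0231), where 43.5% of all genes were lower and 8.07% higher. The part of these cells in the Tlr2 result was not tested beyond these ratios.

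**Figure D4:**
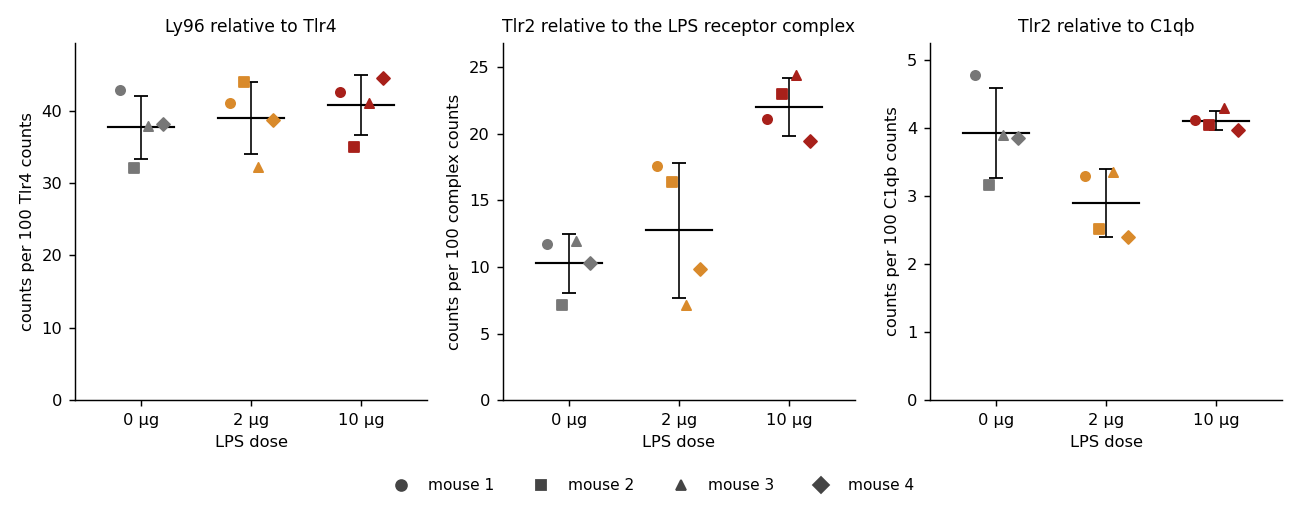
Ratios of counts within a lane by LPS dose (0, 2 and 10 µg), with 1 point per mouse (n = 4 per dose), the mean as a bar and the SD as whiskers: Ly96 per 100 Tlr4, Tlr2 per 100 counts of the LPS receptor complex (geometric mean of Tlr4 and Ly96), and Tlr2 per 100 C1qb. The high-dose mice stand above all others in the middle panel (22 against 10.3 in controls) and inside the control range on the right (4.1 against 3.92). In the ratio of the middle panel, 20.2% of all genes had every high-dose mouse above every control. Per 100 counts of the 4 macrophage and monocyte markers, a ratio not drawn, all high-dose mice lay above all others for Tlr2. The share of all genes with such a separation on that ratio was not counted, and the fit did not pass.

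Other genes of the pathway were counted from lists of adaptors, ligands and target genes. Of 20 listed adaptors and kinases that lead to NF-kB, 4 were measured (Tollip, Map3k7, Nfkb1 and Ripk1) and 0 passed at the high dose, with a median log2 fold change of 0.13. Nfkb1 was at 0.29 ± 0.11 (SE, edgeR adjusted p = 0.0819). Ripk2, a kinase of other pattern receptors, was at 0.55 ± 0.19 (edgeR adjusted p = 0.063). None of 4 co-receptors and LPS transfer proteins was measured here. Of 3 endogenous ligands measured (Hmgn1, Hspb1 and Hspb2), 0 passed.

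Of 17 targets of the Myd88 arm on the panel 16 were tested (Il12a was too low), and 8 were higher at the high dose, beside 22.4% over all genes, with a median log2 fold change of 1.53 and an all-gene median of 0.24. The monocyte chemokines Ccl7 (4.05 ± 0.56, SE) and Ccl2 (3.75 ± 0.47) rose most, and Il1b (1.27 ± 0.34), a fever cytokine, and Ccl3 (1.71 ± 0.37), a chemokine of macrophages, least of those that passed. Of 6 targets of the interferon arm on the panel 5 were tested (Ifnb1 was too low), and 4 were higher, at a median of 3.92. Among them were the chemokines of T cells Cxcl9 (5.40 ± 0.94), Ccl5 (4.73 ± 0.91) and Cxcl10 (3.92 ± 0.45). At the low dose 0 of 16 and 1 of 5 passed, beside 2.42% of all genes, and between high and low dose 3 of 16 and 2 of 5, beside 6.67%.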

How the data were processed

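The authors deposited 1 table of raw barcode counts made by the nCounter instrument, 1 column per mouse in 1 run, handled here as estimated counts because binding density stands in the columns as a decimal. Every probe value is whole. What the instrument software did first is not given in the sources used here. RNA integrity numbers were above 9.7, per the labels' protocols. Groups came from the titles, and the 4 replicates of a group are separate mice.

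The scale of a lane was its geometric mean of 6 reference genes (Cltc, Gapdh, Gusb, Hprt1, Pgk1, Tubb5), set to a geometric mean of 1. Of 179 inflammation genes, 165 were tested: those above the mean plus 2 SD of the 8 negative control probes in at least 4 lanes. All 9 genes described passed through every lane, so the filter chose none. Tests were edgeR 4.0.16 quasi-likelihood fits of all 12 lanes (R 4.3.3), adjusted by Benjamini-Hochberg over all genes tested, with a threshold of 0.05. The SE of a log2 fold change was taken from the F statistic. Each number of mice limits the precision, and single counts carry counting error.

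Alternatives were other scales (4 reference genes, positive controls, total count, DESeq2 size factors and TMM), DESeq2 1.42.0, limma-voom (limma 3.58.1), the series' own test, other filters, background subtraction, the replicate number as a block, and leaving out mice. Scaling by macrophage markers was added after the data were seen. Same-numbered mice correlated above 0.1 in their deviations from group means in all 4 pairs of high dose and control (0.114 to 0.388), but not in all pairs with the low dose (-0.155 to 0.593); the labels do not say what a number shares, and the fits are without a block. Lanes of the same group were not duplicates (chi-square per degree of freedom at least 16.1 in the 18 pairs within groups; pairs between groups were not checked). The procedure was tested on simulated data with 1 spread for all genes, changes in both directions and the lane scale known. That test therefore says nothing on the choice of scale or on genes with a wide spread between mice.

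The genes described and all lists were chosen with earlier results of these data known. Named are all 9 genes, up to 2 highest and 2 lowest called members of each pathway list at the high dose, and the 3 genes nearest in pattern to Tlr2, Tlr4, Ly96 and Myd88; others are said to be chosen after their values were seen, or are markers or reference genes. A gene that this rule names is not reported here. Promoter windows are from RefSeq (GRCm38.p6). The deposited table names no genome build.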

Additional observations from a re-analysis of the deposited data

Results flagged for a closer look

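In 27 groups of 4 mice (9 genes, 3 doses), 4 held a mouse whose distance to the nearest other was most of the group's whole range by Dixon's criterion; chance gives about 1 in 20, or 1.35 groups. Tlr1 was 207.4 in low-dose mouse 2, against 112 to 125.1 in the other low-dose mice. Tlr1 was 193.2 in control mouse 1, against 72.62 to 78.8 in the other controls. Tlr6 was 177.2 in high-dose mouse 3, against 41.25 to 55.67 in the other high-dose mice. Myd88 was 910.6 in low-dose mouse 4, against 298.1 to 379.2 in the other low-dose mice. The cause was not tested.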

How the results depend on the processing

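Of the 9 genes, 2 were higher at the high dose than in controls by edgeR, 1 by TMM and by DESeq2 size factors, 1 by the series' own test with Benjamini-Hochberg adjustment, and 1 to 3 when 1 mouse was left out. Tlr2 was among them each time. By total count, Ly96 was -0.16 (adjusted p = 0.158), and Tlr3 (-0.31, adjusted p = 0.0423) and Tlr5 (-0.79, adjusted p = 0.013) passed as lower. Over all genes the median log2 fold change at the high dose was 0.24 with the reference genes as scale, -0.34 with total count, -0.01 with size factors of DESeq2, 0.00 with TMM and 0.20 with positive controls. The split of all calls moved with the scale: 37 higher and 0 lower with reference genes, 30 and 62 with total count, 34 and 25 with size factors, and 34 and 20 with TMM. By positive controls Tlr4 passed (0.28, adjusted p = 0.0482) and Ly96 did not (0.39, adjusted p = 0.114). Between high and low dose the count of 0 became 1 (Tlr2) by DESeq2, limma-voom, the filter in all 12 lanes and the series' own test with Benjamini-Hochberg adjustment, 2 by that test unadjusted, and 0 to 1 when 1 mouse was left out. Between low dose and control it was 0 in every setting run, also when 1 mouse was left out. Relative to the LPS receptor complex, the count of 1 at the high dose became 0 without control mice 2 and 4, and ran from 1 to 3 when 1 mouse was left out; at the low dose and between doses it was 0 in every setting run. With the replicate number as a block the counts were 2, 0 and 0, and 1, 0 and 0 relative to the complex, so the block changed no count. At the high dose against control, where all 4 same-numbered pairs correlated above 0.1, the block gave Tlr2 1.47 (adjusted p = 0.0124) and Ly96 0.42 (adjusted p = 0.0454), and no call of the 9 genes changed. Relative to the 4 macrophage and monocyte markers, a count of 1 at the high dose ran from 0 to 5 when 1 mouse was left out, and was 6 relative to C1qb alone. The causes of these shifts were not tested. Genes with few raw counts (Tlr2, Tlr5, Tlr6 and Tlr7, from 23, 27, 24 and 24 upwards) carry the most counting error. With 4 mice per group the SE on the log2 scale reached 0.48 (Tlr6), and Tlr1, Tlr6 and Myd88 were the least precise.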
